A study of Arabidopsis thaliana with 14 samples.

Results

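The genes described here are the 200 that were most raised with leaf age in wild-type (WT) Arabidopsis, followed into the *hda9* and *pwr* mutants. They were chosen from WT values alone. For each of the 18988 genes above 0 in all 4 WT libraries, the higher of 2 young leaf values was subtracted from the lower of 2 early senescent leaf values on the log2(FPKM + 1) scale, and the 200 largest results were kept out of 33278 genes in the tables. FPKM is the number of fragments per kilobase of transcript, scaled to the mapped reads of the library. The WT age differences of these genes are therefore a description, whereas their values in the *hda9* and *pwr* libraries took no part in the choice.

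Leaf senescence is the last stage of leaf life, in which the cell dismantles its chloroplasts and moves nitrogen, phosphorus, metals and sugars to growing organs. It is driven by age and sped up by abscisic acid, jasmonate, ethylene and salicylic acid, and many transcripts of hormone response, transport and defense accumulate with it. HDA9 is a histone deacetylase of the RPD3 type, and POWERDRESS (PWR) is a SANT domain protein that works with it.

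Early senescent (ES) leaves of *hda9*, *pwr* and WT plants gave 2 RNA-seq libraries each. Young leaves (YL, labelled 2 weeks) gave 1 library from *hda9* plants and 2 from WT plants. The study's methods instead give seedlings of under 2 weeks as their source, so the age is uncertain. WT was the accession Columbia-0, and each mutant was represented by a single T-DNA insertion line, grown on soil in continuous light. No YL library of *pwr* was analysed here, and age differences in *hda9* rest on 1 young library. Repeated libraries are biological replicates per the study's methods, but the labels do not say whether they came from separate plants, so p-values measure only the spread between these libraries.

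HDA9 was listed at 1.12 and 3.21 FPKM in the *hda9* ES libraries, against 5.94 and 11.7 FPKM in WT ES libraries. PWR (*AT3G52250*) was listed at 7.01 and 6.02 FPKM in *pwr* ES libraries and at 10.2 and 17 FPKM in WT ES libraries. PWR was higher in *hda9* ES leaves, at 28.5 and 51.5 FPKM, than in WT ES leaves (log2 difference 1.47, standard error, SE, 0.39, limma adjusted p = 0.908). The depth is not stated in the tables, which hold no counts, and 20607 to 22751 genes were above 0 in a library. The FPKM of weakly expressed genes fell on shared steps in 5 libraries (*hda9* ES replicate 2, both *pwr* ES libraries, WT ES replicate 2 and WT YL replicate 2) and not in the other 4. For pairs of these 5, the commonest FPKM ratio covered 13.8% to 21.0% of weakly expressed genes, against at most 1.36% for other pairs. No label gives the source of this difference. Both *pwr* libraries were of the set with steps, and *hda9* and WT had 1 ES library in each.

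ES and YL values stand in separate tables, and the libraries differed in more than age. The gene *AT2G01021* held 58.5% of all FPKM in the *hda9* YL library and 66.5% and 36.4% in the WT YL libraries, whereas no gene held more than 5.06% in an ES library. All 8 leaf markers (Rubisco small subunits, Rubisco activase and light-harvesting proteins) were above 1 FPKM in every library. Their sum was 5189 to 19469 FPKM in *hda9* ES libraries, 14753 to 19955 in *pwr* ES libraries and 15337 to 33745 in WT ES libraries, and 46286 to 78260 in the YL libraries. In each genotype 4 of the 6 root markers, not always the same 4, were at 0 in both ES libraries. Root markers summed to at most 0.384 FPKM in ES libraries. In YL libraries they summed to 42.7 FPKM in *hda9* and 28.4 to 34.1 FPKM in WT, with 3 of 6 at 1 FPKM or more. Shoot apex markers summed to 10.4 to 12.1 FPKM in the YL libraries, against at most 0.986 in ES libraries. The flower and seed marker lists summed to at most 16.0 FPKM in every library. The part of this difference in tissue in the age differences was not tested, and in whole leaves fewer cells of a type cannot be told apart from less RNA per cell.

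The start regions of the 200 genes are shown first, because a stress hormone motif was found in a larger share of them than of all genes, which is a description without a test. Promoters were read from the RefSeq genome (TAIR10.1), from 250 bases before to 50 bases after each annotated start, and all 200 genes had one. The abscisic acid response element core ACGTG, counted on both strands, was present in 76 of the 200 (38.0%), against 24.6% of all 37897 promoters and 27.6% of those of the genes tested below. It was present more than once in 33 (16.5%), against 9.11% of all promoters. A match inside the G-box CACGTG counts on both strands, and the G-box itself was present in 9.5% of the 200, 6.46% of all and 9.00% of those of the genes tested. The heat shock element GAANNTTC was present in 19.5% of the 200 and 11.4% of all promoters. The WRKY core TTGAC was found in 53.5% and 49.5%, the TGA factor motif TGACG in 28% and 22.6%, the cold and drought motif CCGAC in 17% and 15.3%, and the evening element AAATATCT in 7.5% and 5.08%. The GCC-box GCCGCC was in none of the 200 and in 2.72% of all promoters.

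Start regions of 6 genes follow, each as the 250 bases before the annotated start, 5′ to 3′ on the strand of the gene, with ACGTG and its complement in capitals. They belong to genes on which the results turn. *BGL2* (PR2) had the largest WT age difference, *SAG13* is a senescence marker, *VSP1* and *JRG21* are jasmonate genes with large differences between *pwr* and *hda9*, *COR15A* fell most in *hda9*, and *CML41* shows a start region without a match. In *COR15A* the motif CCGAC is in capitals as well.
*BGL2*, chr3:21189968-21190217, minus strand: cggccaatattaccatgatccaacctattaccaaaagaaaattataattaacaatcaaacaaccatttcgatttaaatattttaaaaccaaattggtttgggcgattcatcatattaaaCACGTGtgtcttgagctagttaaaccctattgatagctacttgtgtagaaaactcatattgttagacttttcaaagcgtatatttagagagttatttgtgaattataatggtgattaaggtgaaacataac
*SAG13*, chr2:12600664-12600913, plus strand: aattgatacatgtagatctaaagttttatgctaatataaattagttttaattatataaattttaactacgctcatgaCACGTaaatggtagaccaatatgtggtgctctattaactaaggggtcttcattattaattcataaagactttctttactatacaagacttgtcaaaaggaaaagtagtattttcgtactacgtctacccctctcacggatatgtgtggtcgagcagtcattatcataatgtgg
*VSP1*, chr5:8509202-8509451, minus strand: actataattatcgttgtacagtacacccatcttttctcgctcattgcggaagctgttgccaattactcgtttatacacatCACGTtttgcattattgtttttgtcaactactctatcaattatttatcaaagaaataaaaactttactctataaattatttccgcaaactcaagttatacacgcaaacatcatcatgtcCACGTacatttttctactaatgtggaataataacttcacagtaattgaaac
*JRG21*, chr3:20769411-20769660, minus strand: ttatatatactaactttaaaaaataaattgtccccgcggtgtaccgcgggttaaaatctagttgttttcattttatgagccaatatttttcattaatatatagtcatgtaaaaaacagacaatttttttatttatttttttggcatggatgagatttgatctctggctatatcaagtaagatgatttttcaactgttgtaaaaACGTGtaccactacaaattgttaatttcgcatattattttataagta
*COR15A*, chr2:17712331-17712580, minus strand: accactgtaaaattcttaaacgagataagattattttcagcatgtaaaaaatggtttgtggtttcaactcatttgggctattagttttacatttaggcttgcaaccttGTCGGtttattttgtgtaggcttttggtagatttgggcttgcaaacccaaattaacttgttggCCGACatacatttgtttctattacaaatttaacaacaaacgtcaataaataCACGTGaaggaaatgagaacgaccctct
*CML41*, chr3:18873661-18873910, plus strand: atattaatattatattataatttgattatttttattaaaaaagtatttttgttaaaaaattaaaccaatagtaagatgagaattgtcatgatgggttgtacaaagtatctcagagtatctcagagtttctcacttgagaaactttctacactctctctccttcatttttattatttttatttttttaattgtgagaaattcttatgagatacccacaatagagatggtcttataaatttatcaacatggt

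Most of the 200 were protein coding genes (193), and the others were 3 long noncoding RNAs, 2 transcribed pseudogenes, an antisense RNA and a small nuclear RNA. They lie on all chromosomes, with 50 on chromosome 1, 26 on chromosome 2, 44 on chromosome 3, 31 on chromosome 4 and 49 on chromosome 5. For 37 of them another of the 200 lies within 10 kb, such as the neighbours *VSP1* and *VSP2* or *LTP3* and *LTP4*. *VSP1* and *VSP2* are near copies, as are *LTP3* and *LTP4*, so that reads may have been shared within these pairs. Of the 200, 42 overlap a gene annotated on the same stretch, 8 of them among the 37, and since use of strand is not stated for the counting, their reads cannot be told apart from those of the other gene. Of the gene lists examined for senescence, hormones and transport, 27 of the 200 were on at least 1.

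The value by which they were chosen ran from 7.09 to 2.86, with a median of 3.38. The last genes inside the limit were *NUDT8* (2.87), *GLY3* (2.87) and *TIFY7* (2.86), and the first outside were *LDOX* (2.86), *ACA.l* (2.85) and *KIN1* (2.85). *BGL2*, a secreted beta-1,3-glucanase induced by salicylic acid, had 315 and 251 FPKM in WT ES leaves and 0.842 and 0.205 FPKM in WT YL. *PAP1*, the MYB activator of anthocyanin synthesis, had 88.1 and 176 FPKM in WT ES leaves, against 0.402 and 0.151 FPKM in WT YL. *CORI3*, a jasmonate-induced cystine lyase, was among the strongest transcripts, with 922 and 1768 FPKM in WT ES leaves and 19.6 and 7.06 FPKM in WT YL. The other 9 of the 12 largest values belonged to the calmodulin-like gene *CML41*, the membrane steroid binding gene *MAPR2*, the lectin gene *JAL23*, the senescence marker *SAG13*, the storage protein gene *VSP1*, the vacuolar cation exchanger gene *CAX3*, the calcium binding EF-hand gene *AT1G21550*, the pyridoxal phosphate enzyme gene *AT1G34060* and *AT2G34655*, which has no named function. In 63 of the 200 the lower WT ES library held at least 100 FPKM, and in 41 both WT YL libraries were under 1 FPKM.

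**Figure D1:**
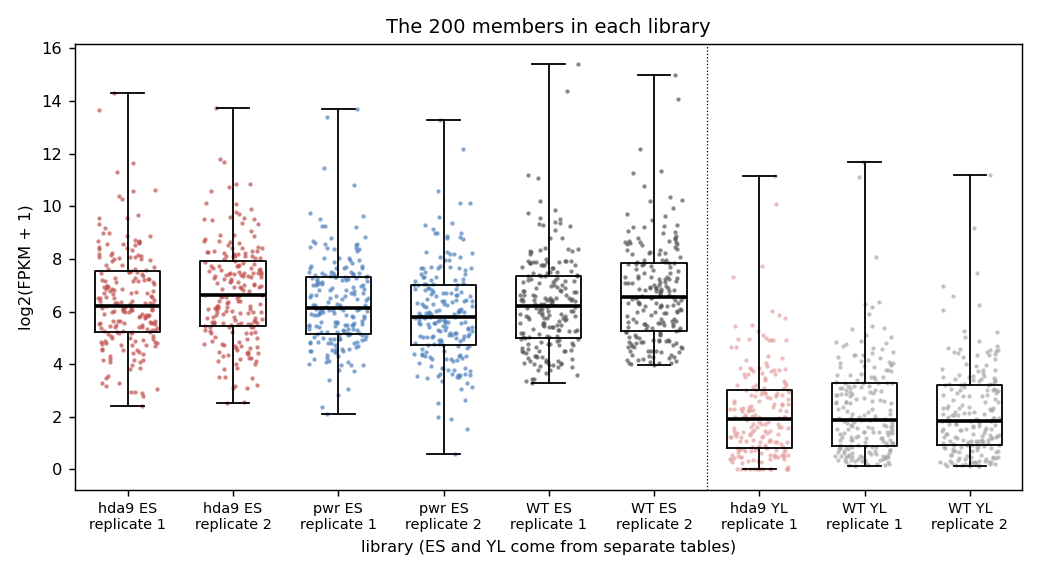
The 200 genes in each of the 9 libraries, as log2(FPKM + 1) on the vertical axis; each point is a gene, boxes span the quartiles, the thick line is the median and the whiskers reach the lowest and highest gene. Medians were 6.22 and 6.63 in *hda9* ES, 6.13 and 5.80 in *pwr* ES, 6.22 and 6.54 in WT ES, 1.92 in *hda9* YL and 1.88 and 1.84 in WT YL, with *pwr* ES replicate 2 the lowest of the ES libraries.

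In *hda9* leaves nearly the same set was higher with age. Of the 200 genes, 198 were higher in both *hda9* ES libraries than in the *hda9* YL library, against 58.9% of the 18988 genes, and in 193 both ES libraries were at least 2-fold above it on the FPKM + 1 scale, against 31.5%. The WT libraries gave 200 of 200 by construction, against 50% of all genes. The median difference in *hda9* was 4.28 on the log2 scale (0.57 over all genes), against 3.97 in WT (0.46 over all genes). The *hda9* ES libraries each gave a like median, 4.21 for replicate 1 and 4.38 for replicate 2. Since ES and YL were normalized in separate tables and *hda9* had 1 young library, no test was made between the ages.

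The genes with the largest differences in *hda9* were of mixed function. *NAS3*, a nicotianamine synthase that makes the metal chelator loaded into phloem, had 289 and 475 FPKM in *hda9* ES leaves and 0.288 FPKM in *hda9* YL, a difference of 8.17 between the mean and the young library on the log2 scale. *SAG29* (SWEET15), a sucrose transporter of senescing leaves, had 256 and 538 FPKM in *hda9* ES leaves, against 0.253 FPKM in *hda9* YL. *SAG13*, which encodes a short-chain dehydrogenase, had 506 and 836 FPKM in *hda9* ES leaves, against 1.5 FPKM in *hda9* YL. *CML41* was also among the largest by the mean, at 8.12 on the log2 scale. *NAS3*, *SAG29*, *SAG13* and *CORI3*, the uncharacterized gene *AT1G64360* and the noncoding RNA *AT5G42092* had the largest differences from the lower ES library, between 7.06 and 7.82 on the log2 scale. All 4 anthocyanin genes of the set were high in both *hda9* ES libraries. *DFR*, the dihydroflavonol reductase, had 344 and 394 FPKM in *hda9* ES leaves and 2.88 FPKM in *hda9* YL.

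A few genes departed from this pattern. *PUB19*, a U-box ubiquitin ligase of drought response, had 7.21 and 38.2 FPKM in *hda9* ES leaves and 29.7 FPKM in *hda9* YL, against 0.907 and 0.413 FPKM in WT YL. *AT5G39670*, an EF-hand gene, had 16.8 and 113 FPKM in *hda9* ES leaves and 29.2 FPKM in *hda9* YL. These were the 2 genes in which an *hda9* ES library fell below the young one. *MAPR2* had 89.3 and 46.6 FPKM in *hda9* ES leaves and 29.2 FPKM in *hda9* YL, where WT YL had 0.142 and 0.102 FPKM. *COR15A*, *AT1G54020*, *CBP60G* and *AT1G24140* also had differences of under 1 on the log2 scale between the lower *hda9* ES library and the young one (0.97, 0.81, 0.77 and 0.41).

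**Figure D2:**
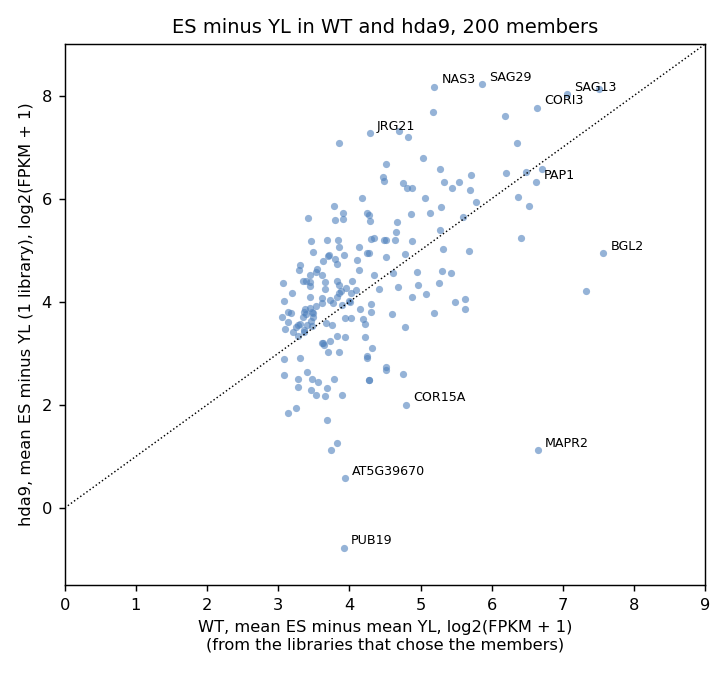
Difference between ES and YL leaves on the log2(FPKM + 1) scale for the 200 genes, in *hda9* (vertical, mean of 2 ES libraries minus 1 YL library) and in WT (horizontal, mean of 2 minus mean of 2, from the libraries that chose the genes). The dotted line marks equal differences; 199 genes lie above 0 in *hda9*, *PUB19* lies below it, and *MAPR2* is far under the line.

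In young leaves, 17 of the 200 were at least 2-fold higher in the *hda9* library than in the higher WT library on the FPKM + 1 scale, against 2.14% of all genes, and 11 were at least 2-fold lower than the lower WT library, against 3.35%. The choice of genes with low WT YL values favours the first count, so nothing is read from it. Besides *MAPR2*, *PUB19* and *AT5G39670*, the 17 held the jasmonate-induced storage protein genes *VSP1* (44.4 FPKM in *hda9* YL, against 15.7 and 12.9 in WT YL) and *VSP2* (159 FPKM in *hda9* YL, against 76.7 and 64.9 in WT YL). They also held *NAC019*, a NAC factor of stress response, with 4.31 FPKM in *hda9* YL and 0.267 and 0.199 FPKM in WT YL, and the cold response factor *DREB1A*, with 3.84 FPKM in *hda9* YL and 0.418 and 0.456 FPKM in WT YL. In the *hda9* YL library 14 of the 200 were listed at 0, among them *LTP4* and *CHAT*. The choice left out genes at 0 in a WT library, so nothing is read from this count.

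The difference between the mutants rests on libraries that took no part in the choice, although the WT ES libraries entered the filter on low values and the estimate of spread in the fit. Here the 200 stood lower in *pwr*. Between *pwr* and *hda9* ES leaves their median log2 difference was -0.37, whereas that of all 18140 genes with a mean of at least 1 FPKM was 0.07, and all 200 passed that filter. The difference was below 0 in 150 of the 200 (75%) and in 42.9% of all genes. With limma at an unadjusted p under 0.05, the threshold used by the study, 23 of the 200 fell in *pwr* relative to *hda9* (background 2.01%) and 2 rose (background 2.76%). Fitted on the *pwr* and *hda9* libraries alone, 33 fell (background 2.65%) and 2 rose (background 2.36%). Both *pwr* libraries were under both *hda9* libraries in 75 (background 14.4%) and above both in 13 (background 19.9%). No gene of the genome passed an adjusted p of 0.05 in this comparison (background 0%), and the smallest adjusted p among the 200 was 0.69. Against *hda9* ES replicate 2, the only *hda9* library of the set with steps, the median was -0.36 in *pwr* replicate 1 and -0.82 in *pwr* replicate 2. The number that fell was 9, with a background of 1.07%, when *pwr* ES replicate 2 was left out and 64, with a background of 9.91%, when the library set was a block in the fit. The leaf markers ran the other way, with a median difference of 0.83 between *pwr* and *hda9* and none past the test. They summed to 14753 to 19955 FPKM in *pwr* ES libraries, against 19469 FPKM in *hda9* ES replicate 1 and 5189 FPKM in *hda9* ES replicate 2. Without *hda9* ES replicate 2, the median of the 200 was -0.31 and 16 fell (background 2.30%). The part of the leaf markers in these differences was not tested. The deviations of same-numbered ES libraries correlated at 0.55 between *hda9* and WT, whose ES values helped to choose the genes. Between *pwr* and WT the correlation was 0.0991. The part of this in the differences between the mutants was not tested either.

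**Figure D3:**
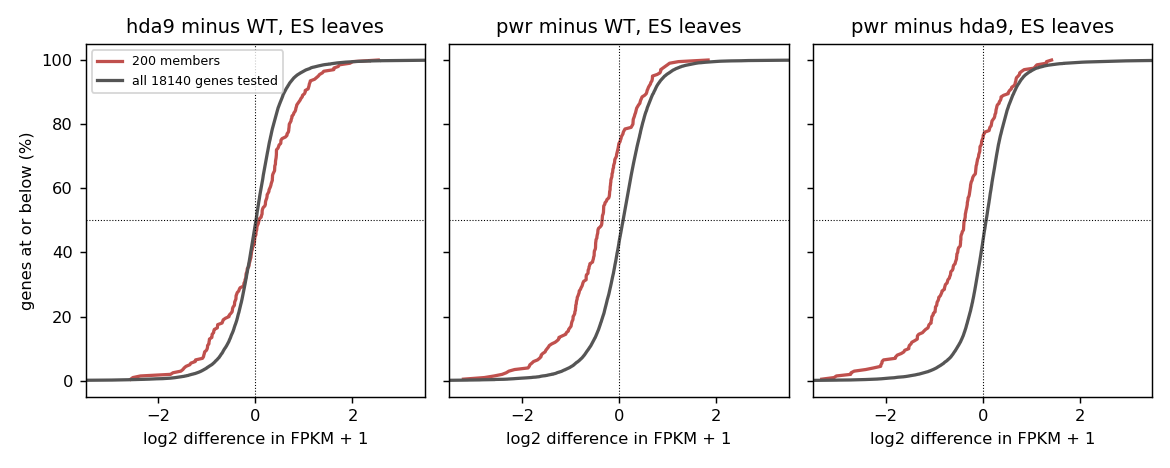
Cumulative share of genes (vertical, %) at or below a log2 difference in FPKM + 1 (horizontal) between ES leaves of *hda9* and WT, *pwr* and WT, and *pwr* and *hda9*, for the 200 genes (red) and the 18140 genes tested (grey). The red curve crosses 50% at 0.08, -0.35 and -0.37, and the grey curve at 0.01, 0.08 and 0.07.

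Several of the genes lowest in *pwr* relative to *hda9* are known to be induced by jasmonate. The genes of the set with jasmonate on a list or in their reference name, grouped after their values were seen, are *VSP1*, *VSP2*, *CORI3*, *JRG21* and *TIFY7*. All 5 had both *pwr* libraries below both *hda9* libraries, as did 37.5% of the 200 and 14.4% of all genes. *VSP1* had 57.6 and 112 FPKM in *pwr* ES leaves, against 1235 and 349 FPKM in *hda9* ES leaves (log2 difference -3.01 ± 0.68 SE, limma adjusted p = 0.729). *JRG21*, a dioxygenase that oxidises jasmonic acid, had 14.5 and 41.2 FPKM in *pwr* ES leaves, against 408 and 157 FPKM in *hda9* ES leaves (-3.31 ± 0.74 SE, adjusted p = 0.729). *CORI3* had 379 and 463 FPKM in *pwr* ES leaves, against 1353 and 1073 FPKM in *hda9* ES leaves (-1.52 ± 0.43 SE, adjusted p = 0.926). The groups did not overlap in any of these, but the *hda9* libraries were far apart in *VSP1* and *JRG21*.

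*VSP2* (261 and 288 FPKM in *pwr*, 1545 and 396 FPKM in *hda9*) and *TIFY7*, the repressor JAZ9 (165 and 83.4 FPKM in *pwr*, 208 and 238 FPKM in *hda9*), did not pass the test. Among the genes that fell, chosen for that, were 3 more known to respond to jasmonate or wounding. *CHAT*, the acetyltransferase of green leaf volatile synthesis, had 4.23 and 2.78 FPKM in *pwr*, against 21.0 and 37.5 FPKM in *hda9* (-2.71 ± 0.77 SE). *ARGAH2*, an arginase, had 158 and 95.4 FPKM in *pwr*, against 575 and 470 FPKM in *hda9* (-2.07 ± 0.53 SE). *AT5G05600*, a relative of *JRG21*, had 67.9 and 59.6 FPKM in *pwr*, against 180 and 263 FPKM in *hda9* (-1.76 ± 0.62 SE). On the whole jasmonate list of 19 genes tested, 3 fell in *pwr* relative to *hda9* (background 2.01%) and none rose (background 2.76%), with a median of -0.59.

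Some genes of senescence and nutrient export fell in *pwr* relative to *hda9* as well. *SAG13* fell, with 174 and 84.8 FPKM in *pwr* ES leaves, against 506 and 836 FPKM in *hda9* ES leaves (-2.41 ± 0.67 SE, limma adjusted p = 0.926). *NAS3* had 46.1 and 41.2 FPKM in *pwr*, against 289 and 475 FPKM in *hda9* (-3.06 ± 0.69 SE, adjusted p = 0.729). Of 6 genes with senescence, yellowing or phytol recovery in their lists or names (*SAG13*, *SAG29*, *ERD1*, *YLS2*, *AT4G11910* and *PES2*, grouped after their values were seen), all 6 had both *pwr* libraries below both *hda9* libraries. The share with this order was 37.5% of the 200 and 14.4% of all genes. *SAG13* and *YLS2* passed the test. The stay-green gene *AT4G11910* (NYE2), for instance, had 17.3 and 22.9 FPKM in *pwr*, 49.5 and 158 FPKM in *hda9* and 15.1 and 90.9 FPKM in WT. Against WT, the median log2 difference of these 6 genes was 1.24 in *hda9*, with all 6 above 0. In *pwr* against WT it was -0.67, with 5 below 0 and 1 above. None of the 6 passed the test against WT. Both *hda9* libraries were above both WT libraries in 1 of the 6, and both *pwr* libraries were below both in 1. Over the 200 genes the median against WT was 0.08 in *hda9* and -0.35 in *pwr*, with 74.0% below 0 in *pwr*. WT ES values had helped to choose the genes, so lower mutant values are partly built in. Of the 3 UMAMIT amino acid transporter genes of the set, 2 fell and *UMAMIT38* did not pass the test, with 178 and 209 FPKM in *pwr* and 194 and 142 FPKM in *hda9*. *UMAMIT45* had 26.6 and 33.4 FPKM in *pwr*, against 63.9 and 68.8 FPKM in *hda9* (-1.13 ± 0.25 SE, adjusted p = 0.732). *UMAMIT40* and the amino acid transporter gene *AT3G56200* fell by 1.05 and 1.21 on the log2 scale. On the list of 15 senescence markers, 4 fell in *pwr* relative to *hda9* and none rose (median -1.24). On the list of 27 tested nutrient remobilization genes 2 fell and 2 rose (median -0.56). This list does not hold *NAS3*, the UMAMIT genes or *AT3G56200*. Its 5 genes in the set (*GSR 1*, *NRT1.7*, *DUR3*, *YSL1* and *PAP17*) were all below 0, and none passed the test. Over all genes 2.01% fell and 2.76% rose.

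**Figure D4:**
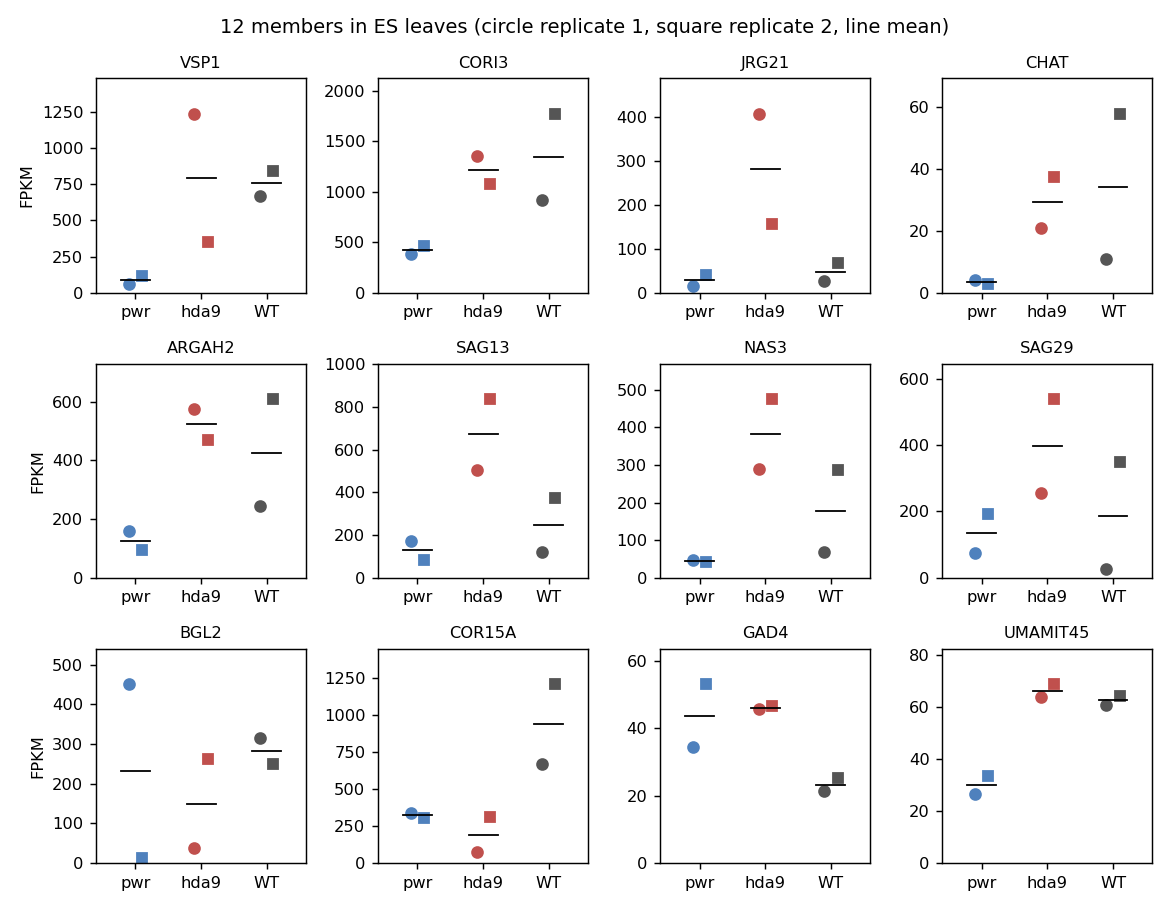
FPKM (vertical, from 0) of 12 of the genes in the ES libraries of *pwr*, *hda9* and WT; circles are replicate 1, squares replicate 2 and lines the mean of both. In *VSP1*, *CORI3*, *JRG21*, *CHAT*, *ARGAH2*, *SAG13*, *NAS3*, *SAG29* and *UMAMIT45* both *pwr* libraries lie below both *hda9* libraries, whereas *BGL2* differs most between the *pwr* libraries (451 and 12.6 FPKM).

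The remaining genes with large falls were of mixed function. *AT1G02470*, of a lipid transport superfamily, had 14.5 and 18.2 FPKM in *pwr*, against 77.1 and 164 FPKM in *hda9* (-2.72 ± 0.84 SE). *AT1G54020*, a GDSL lipase gene, had 3.27 and 0.483 FPKM in *pwr*, against 28.4 and 7.44 FPKM in *hda9* (-2.65 ± 0.74 SE). *PRXCB*, a cell wall peroxidase that makes hydrogen peroxide in defense, had 350 and 622 FPKM in *pwr*, against 2495 and 1552 FPKM in *hda9* (-2.07 ± 0.49 SE). *AT1G73750*, a hydrolase gene, had 29.8 and 23.3 FPKM in *pwr*, against 62.2 and 90.5 FPKM in *hda9* (-1.48 ± 0.31 SE). The 2 genes that rose were the metal binding gene *AT1G51090* (65.7 and 89.1 FPKM in *pwr*, 40.8 and 48.7 FPKM in *hda9*, 0.77 ± 0.29 SE) and the TRAF-like gene *AT4G01390* (157 and 208 FPKM in *pwr*, 84.0 and 61.8 FPKM in *hda9*, 1.31 ± 0.51 SE).

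The set was also lower in *pwr* than in WT, where the WT ES values had helped to choose it. The choice favours genes with high WT ES values, so lower mutant values are partly built in and nothing is concluded from the counts. The median log2 difference between *pwr* and WT ES leaves was -0.35 (0.08 over all genes), with 74.0% of the 200 below 0 and 43.0% of all genes. By limma 21 fell (background 2.82%) and 2 rose (background 3.65%). Both *pwr* libraries were below both WT libraries in 61 (background 16.7%) and above both in 18 (background 25.7%). None passed an adjusted p of 0.05 (background 0.0331%), and the smallest adjusted p among the 200 was 0.652. Without *pwr* ES replicate 2 the number that fell was 5 (background 1.01%), and without WT ES replicate 2 it was 12 (background 2.71%). All 200 were above both WT YL libraries in both *pwr* ES libraries (background 56.2%).

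*VSP1* had 57.6 and 112 FPKM in *pwr* ES leaves, against 667 and 845 FPKM in WT ES leaves (-3.21 ± 0.68 SE, limma adjusted p = 0.729). *CORI3* had 379 and 463 FPKM in *pwr*, against 922 and 1768 FPKM in WT (-1.60 ± 0.43 SE). *JAL23* had 29.6 and 32.2 FPKM in *pwr*, against 106 and 238 FPKM in WT (-2.32 ± 0.42 SE, adjusted p = 0.652). *AT1G54020* (-2.77 ± 0.74 SE), *CHAT* (-2.57 ± 0.77 SE) and *AT5G52390*, which encodes a PAR1 protein (-2.15 ± 0.72 SE), fell too. *AK3*, an aspartate kinase of lysine, threonine and methionine synthesis, had 112 and 74.8 FPKM in *pwr*, against 303 and 378 FPKM in WT (-1.87 ± 0.42 SE). *TIFY7* fell by 1.45 (± 0.47 SE) and *ARGAH2* by 1.64 (± 0.53 SE) on the log2 scale. On the jasmonate list 5 of 19 fell (background 2.82%) and none rose (background 3.65%), with a median of -1.0. The genes that rose were *GAD4*, a glutamate decarboxylase of GABA synthesis (34.5 and 53.1 FPKM in *pwr*, 21.3 and 25.2 FPKM in WT, 0.86 ± 0.30 SE), and the clock gene *AT5G64170*, LNK1 (59.3 and 70.5 FPKM in *pwr*, 42.3 and 39.1 FPKM in WT, 0.66 ± 0.26 SE).

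In *hda9* ES leaves the set as a whole stood close to WT. The median log2 difference between *hda9* and WT was 0.08 (0.01 over all genes), and 110 of the 200 were above 0 and 90 below. The sign of this median rested on single libraries, with -0.07 without *hda9* ES replicate 2 and -0.04 without WT ES replicate 1. By limma 9 rose (background 2.23%) and 11 fell (background 2.71%), and the WT ES values, shared with the *pwr* comparison, had been used in the choice here too. Both *hda9* libraries were above both WT libraries in 42 (background 15%) and below both in 39 (background 16%). None of the 200 passed an adjusted p of 0.05 (background 0.0276%), and the smallest adjusted p among them was 0.908. Leaf markers moved with this comparison: 4 of the 8 fell in *hda9* relative to WT (median -1.25), with sums of 5189 to 19469 FPKM in *hda9* ES libraries and 15337 to 33745 FPKM in WT ES libraries, whereas none passed the test in *pwr* against WT. Their part in the differences was not tested. The number that rose depended on single libraries, with 2 without *hda9* ES replicate 2 (background 1.41%), 3 without WT ES replicate 1 (background 0.744%) and 29 without WT ES replicate 2 (background 4.44%). With the library set as a block 29 rose and 23 fell, with backgrounds of 9.56% and 7.39%.

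*JRG21* rose most, with 408 and 157 FPKM in *hda9* ES leaves, against 27.1 and 67.8 FPKM in WT ES leaves (2.53 ± 0.74 SE, limma adjusted p = 0.908). *PHO1;H1*, a phosphate exporter, had 67.4 and 63.6 FPKM in *hda9*, against 21.8 and 41.3 FPKM in WT (1.1 ± 0.42 SE). *GAD4* had 45.7 and 46.6 FPKM in *hda9*, against 21.3 and 25.2 FPKM in WT (0.96 ± 0.30 SE). The copper amine oxidase gene *AT4G12290* (0.94 ± 0.28 SE), the guard cell ABC transporter gene *ABCG22* (0.85 ± 0.27 SE) and the uncharacterized gene *AT4G16000* (0.97 ± 0.37 SE) rose too. *WRKY57*, a transcription factor known to repress jasmonate-induced senescence, had 46.5 and 60.0 FPKM in *hda9*, against 27.4 and 35.9 FPKM in WT (0.73 ± 0.28 SE, adjusted p = 0.908). In *pwr* it had 37.3 and 39.8 FPKM, above both WT libraries but without passing the test (0.29 ± 0.28 SE).

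*COR15A*, a cold-induced chloroplast protein that protects membranes, fell most in *hda9*, with 73.4 and 307 FPKM, against 668 and 1204 FPKM in WT (-2.57 ± 0.71 SE, limma adjusted p = 0.908). Its values in *pwr*, 339 and 304 FPKM, were also below both WT libraries without passing the test (-1.48 ± 0.71 SE). *AT5G35480*, which is uncharacterized, had 103 and 43.7 FPKM in *hda9*, against 546 and 225 FPKM in WT (-2.37 ± 0.59 SE). *JAL23* fell in *hda9* too, with 59.5 and 63.7 FPKM in *hda9* and 106 and 238 FPKM in WT (-1.35 ± 0.42 SE). *AAS*, an enzyme of phenylacetaldehyde synthesis, fell by 1.24 (± 0.40 SE) and *AK3* by 1.09 (± 0.42 SE) on the log2 scale. The small nuclear RNA gene AT1G08115 had 13038 and 3280 FPKM in *hda9*, against 43276 and 32692 FPKM in WT (-2.52 ± 0.87 SE), and 13184 and 4620 FPKM in *pwr*, which was lower than WT as well (-2.27 ± 0.87 SE).

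The classical senescence genes of the set did not pass the test between *hda9* and WT, and WT replicates differed widely in them. *SAG29* had 256 and 538 FPKM in *hda9* ES leaves, against 25.6 and 348 FPKM in WT ES leaves (1.95 ± 1.24 SE). *SAG13* had 506 and 836 FPKM in *hda9*, against 119 and 374 FPKM in WT (1.62 ± 0.67 SE), with no overlap. *ERD1* (SAG15), a subunit of the Clp protease chaperone, had 366 and 768 FPKM in *hda9*, against 161 and 500 FPKM in WT (0.90 ± 0.64 SE). *GSR 1*, the cytosolic glutamine synthetase GLN1;1 that prepares nitrogen for export, had 462 and 742 FPKM in *hda9*, against 205 and 401 FPKM in WT (1.03 ± 0.45 SE). The nitrate transporter gene *NRT1.7*, the urea transporter gene *DUR3*, the metal transporter gene *YSL1* and the acid phosphatase gene *PAP17* differed by 0.46 or less on the log2 scale between *hda9* and WT, and the vacuolar processing enzyme gene *GAMMA-VPE* by 0.40.

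The 4 anthocyanin genes *PAP1*, *DFR*, *UF3GT* and *GSTF12* were alike in this. *UF3GT*, an anthocyanin glycosyltransferase, had 120 and 163 FPKM in *hda9* ES leaves and 97.6 and 42.1 FPKM in *pwr* ES leaves, against 21.7 and 188 FPKM in WT ES leaves. *GSTF12* (TT19), which carries anthocyanins to the vacuole, had 324 and 309 FPKM in *hda9* and 177 and 86.5 FPKM in *pwr*, against 78.6 and 406 FPKM in WT. In each of the 4, WT replicate 2 was above WT replicate 1, and no genotype passed the test against WT. All 4 had both *pwr* libraries below both *hda9* libraries, also without passing the test. The share with this order was 37.5% of the 200 and 14.4% of all genes. Of the 200, 39 were at least 2-fold higher in WT ES replicate 2 than in replicate 1, and 16 the other way round.

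Several defense genes, chosen for it after their values were seen, differed widely between the *pwr* libraries. *BGL2* had 451 and 12.6 FPKM in *pwr* ES leaves and 37.2 and 261 FPKM in *hda9* ES leaves, against 315 and 251 FPKM in WT ES leaves. *LURP1*, a gene induced late in resistance to downy mildew, had 388 and 21.3 FPKM in *pwr*, 95.5 and 188 FPKM in *hda9* and 161 and 135 FPKM in WT. *ACD6*, an ankyrin protein that promotes salicylic acid signaling, had 148 and 18.7 FPKM in *pwr*, 148 and 32.0 FPKM in *hda9* and 242 and 87.3 FPKM in WT. The cell wall kinase gene *WAK1* had 128 and 17.4 FPKM in *pwr*, 42.0 and 44.7 FPKM in *hda9* and 57.7 and 50.9 FPKM in WT. *CBP60G*, a regulator of salicylic acid synthesis and the remaining gene of the set on the salicylic acid and defense list, differed more between the *hda9* libraries, with 55.7 and 15.4 FPKM in *pwr*, 10.2 and 77.7 FPKM in *hda9* and 15.6 and 29.5 FPKM in WT. None of these 5 passed the test in any comparison, and the standard error of the *BGL2* differences was 1.73 on the log2 scale.

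Over the whole set, *pwr* replicate 1 was at least 2-fold above replicate 2 in 47 genes and at least 2-fold below it in 15. Dehydration and lipid transfer genes were among those 15, namely *LTP4* (12.5 FPKM in replicate 1 and 170 in replicate 2), *LTP3* (66.2 and 301), the caleosin gene *RD20* (109 and 512) and the amylase gene *AMY1* (14.5 and 63.3). The *hda9* libraries differed at least 2-fold in 64 genes and the WT ES libraries in 55. The median absolute gap between replicates was 0.59 in *pwr*, 0.67 in *hda9* and 0.61 in WT on the log2 scale, against 0.26, 0.44 and 0.41 over all genes.

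**Figure D5:**
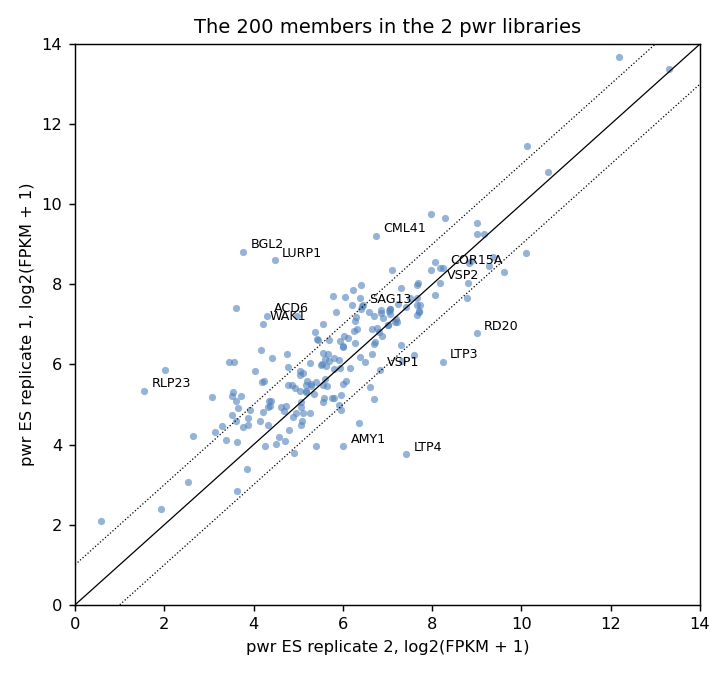
The 200 genes in the *pwr* ES libraries, as log2(FPKM + 1) in replicate 1 (vertical) and replicate 2 (horizontal); the solid line marks equal values and the dotted lines a 2-fold difference. *BGL2*, *LURP1*, *ACD6*, *WAK1*, *RLP23* and *CML41* lie far above the line, and *LTP4*, *LTP3*, *RD20* and *AMY1* far below it. *VSP1* is at 57.6 FPKM in replicate 1 and 112 FPKM in replicate 2, where the medians of the 200 are 68.8 and 54.6 FPKM.

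The set held several gene families, which were summarised after their values were seen. It held 8 receptor-like proteins (*RLP19*, *RLP23*, *RLP32*, *RLP33*, *RLP34*, *RLP47*, *RLP49* and *RLP50*), 10 protein kinases, 6 cytochrome P450 genes, 3 UMAMIT transporters and the cyclic nucleotide gated channels *CNGC3* and *CNGC11*. *RLP50* rose in *hda9* relative to WT, with 30.9 and 36.5 FPKM in *hda9* and 16.9 and 21.3 FPKM in WT (0.79 ± 0.31 SE), and *RLP33* fell, with 5.85 and 7.64 FPKM in *hda9* and 11.5 and 15.4 FPKM in WT (-0.90 ± 0.36 SE). The other 6 passed neither test against WT. The 6 cytochrome P450 genes were all above 0 in *hda9* against WT (median 0.45) and all below 0 in *pwr* against *hda9* (median -0.78). None of them passed a test. Of the 200, 110 were above 0 in the first comparison and 150 (75%) below 0 in the second. The 7 calcium genes were *CML41*, *CAX3*, *CAX1*, *AT1G21550*, *AT3G47480*, *AT5G39670* and *AT3G22910*. Of these, 6 were above 0 in *hda9* against WT and 6 below 0 in *pwr* against *hda9*. None of the 7 passed a test, and none had groups that did not overlap. *CML41*, for instance, had 591 and 106 FPKM in *pwr* ES leaves and 279 and 1856 FPKM in *hda9* ES leaves, against 318 and 628 FPKM in WT ES leaves.

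Sugar transport and abscisic acid genes completed the listed members. *SWEET12*, which exports sucrose for phloem loading, had 389 and 160 FPKM in *hda9* and 148 and 201 FPKM in *pwr*, against 339 and 292 FPKM in WT, and the hexose importer *MSS1* (STP13) had 169 and 274 FPKM in *hda9* and 163 and 114 FPKM in *pwr*, against 117 and 150 FPKM in WT. The lipid transfer gene *LTP3* had 282 and 278 FPKM in *hda9* and 66.2 and 301 FPKM in *pwr*, against 228 and 2489 FPKM in WT. *NAC036* had 36.7 and 212 FPKM in *hda9* and 251 and 83.1 FPKM in *pwr*, against 67.6 and 119 FPKM in WT, so that its groups overlapped in every comparison. On the abscisic acid list, 2 of 26 tested genes fell in *hda9* and none rose, 2 fell and 1 rose in *pwr* relative to WT, and 2 rose and none fell in *pwr* relative to *hda9* (median 0.08). On the salicylic acid and defense list 1 of 26 fell in *hda9* and 1 rose in *pwr*, and none passed between *pwr* and *hda9*. Other lists had rises and no falls in *hda9* against WT. These were 3 of 25 tested WRKY genes, 3 of 27 nutrient remobilization genes and 3 of 17 sugar transport and starvation genes. They were also 2 of 14 autophagy genes, 2 of 15 ethylene genes, 1 of 21 NAC genes and 1 of 15 senescence markers. On the jasmonate list 1 of 19 fell in *hda9* and none rose. Over all genes, 2.71% fell and 2.23% rose in *hda9* against WT. The shares were 2.82% and 3.65% in *pwr* against WT, and 2.01% and 2.76% in *pwr* against *hda9*.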

How the data were processed

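Reads had been mapped by the authors to TAIR10 (Bowtie2, Tophat) and counted once per position before Cufflinks, per the study's methods. The authors deposited FPKM values for each gene and library, with ES and YL leaves in separate tables. Strand use and the Cufflinks program that wrote the tables are not given in the sources used here. The tables hold no counts, so no counting interval could be given. The 200 genes and the gene lists were chosen with earlier results of these data known.

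A pseudocount of 1 was added to the FPKM before taking log2, which understates changes of weakly expressed genes, and fold changes are differences on that scale. All 6 ES libraries entered one limma model (limma 3.58.1, R 4.3.3, trended variance, two-sided, no block) over the 18140 genes with a mean of at least 1 FPKM. The study's threshold, an unadjusted p under 0.05, decided the calls, and p were also adjusted by Benjamini-Hochberg over all genes. The procedure was tested on simulated data. ES and YL values were set side by side without a test. Other steps used Python 3.11.15, pandas 2.3.3, numpy 2.4.6 and matplotlib 3.10.9. Of the 33278 identifiers, 32820 matched RefSeq (TAIR10.1), as did all 200 genes, and sequences and coordinates are RefSeq's.

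The genes named were the 12 with the largest WT age difference, 3 just inside and 3 just outside the limit, for each ES comparison up to 6 called genes in each direction with libraries that did not overlap, the 6 highest and 6 lowest age differences in *hda9*, and every gene of the 200 on a list. Genes named beyond these, such as *LURP1*, *WAK1*, *RD20*, *ARGAH2*, *PRXCB*, *UMAMIT45*, *YLS2*, *PES2*, *AT5G05600* and *AT1G73750*, were chosen after their values were seen. Alternatives were a pseudocount of 0.1, no filter, a mean of at least 5 FPKM, rescaling to equal 75th percentiles or by median ratios, blocks for replicate number or library set, a fit restricted to the 2 genotypes in a comparison, adjusted p and each library left out. The ChIP samples of the series were not used here.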

Additional observations from a re-analysis of the deposited data

Results flagged for a closer look

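Among the 58 named genes of the set, 9 had *hda9* values on opposite sides of WT in young and in early senescent leaves, with the *hda9* and WT libraries not overlapping at either stage. The difference between the stages was not tested, since *hda9* had 1 YL library and the tables were normalized separately. *MAPR2* was the only one of these 9 with *hda9* higher in YL (log2 difference 4.75 from the WT mean) and lower in ES leaves (-0.78). In the other 8 *hda9* was lower in YL and higher in ES leaves. For *NAS3* the differences between *hda9* and WT were 1.38 in ES leaves and -1.60 in YL, and for *JRG21* they were 2.53 in ES leaves and -0.45 in YL. *PHO1;H1* had 1.1 in ES leaves and -0.73 in YL, and *AT4G12290* had 0.94 in ES leaves and -1.0 in YL. The glutamine synthetase gene *GSR 1* had 1.03 in ES leaves and -0.45 in YL, and *GAMMA-VPE* had 0.40 in ES leaves and -0.50 in YL. *AT5G42092* had 0.35 in ES leaves and -2.02 in YL, and *AT1G34060* had 0.30 in ES leaves and -0.47 in YL, where *hda9* was listed at 0. Over all 200 genes, 20 were lower in *hda9* YL and higher in *hda9* ES leaves than WT in this way (6.45% of the 18988 genes), 10 were higher in YL and lower in ES leaves (5.65%), 8 were higher at both stages (4.62%) and 19 lower at both (7.05%). WT values at both stages had chosen the genes.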

How the results depend on the processing

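None of the 68 calls on the 200 genes turned its direction under any alternative, and 68 of 68 kept a p under 0.05 with a pseudocount of 0.1, 50 without a filter, 62 with equal 75th percentiles, 64 with median ratios and 58 when only the 2 groups compared were fitted. Fewer were kept with a library left out, namely 28 without *pwr* ES replicate 2, 37 without *hda9* ES replicate 2, 41 without either WT ES library, 43 without *hda9* ES replicate 1 and 48 without *pwr* ES replicate 1. At an adjusted p under 0.05 the counts were 0 in each direction of the 3 comparisons. Scaling by median ratios left 1 gene higher in *pwr* than in WT and 0 higher in *pwr* than in *hda9*. With a block for the library set, 29 rose and 23 fell in *hda9* against WT, 6 rose and 46 fell in *pwr* against WT, and 7 rose and 64 fell in *pwr* against *hda9*. The labels do not say whether replicate numbers pair the samples. Same-numbered ES libraries of *hda9* and WT were of the same library set, and their deviations correlated at 0.55. The correlation was 0.0991 between *pwr* and WT and -0.0113 between *pwr* and *hda9*. A replicate block gave 13 higher and 16 lower in *hda9* against WT (4.48% and 4.12% of all genes), 5 higher and 32 lower in *pwr* against WT (7.34% and 4.57%), and 8 higher and 33 lower in *pwr* against *hda9* (4.80% and 3.45%). With each library left out in turn, where the lone library of a group is assumed to vary like the others, the counts ran from 2 to 29 higher and 6 to 16 lower in *hda9* against WT, from 1 to 4 higher and 5 to 30 lower in *pwr* against WT, and from 2 to 6 higher and 9 to 34 lower in *pwr* against *hda9*. The median differences, alternatives added after the data were seen, then ran from -0.07 to 0.31, from -0.58 to -0.15 and from -0.62 to -0.22 in the same order. Calls that held in every one of these fits were those of *AT5G35480* in *hda9* against WT, of *JAL23*, *VSP1*, *AK3* and *UMAMIT45* in *pwr* against WT, and of *VSP1*, *AT1G73750*, *JRG21*, *NAS3* and *UMAMIT45* in *pwr* against *hda9*. The held calls against WT were all falls, and WT ES values had helped to choose these genes. Lower mutant values are thus partly built in there, in every fit, unlike in *pwr* against *hda9*. Of the 200 genes, 158 were chosen again with a pseudocount of 0.1, 191 with equal 75th percentiles and 200 among genes with a WT ES mean of at least 5 FPKM. The number higher in *hda9* ES leaves than in *hda9* YL stayed between 198 and 200, and their median age difference, 4.21 within the set without steps, was 4.85 with a pseudocount of 0.1. The libraries hold no counts, so the precision of weakly expressed genes is unknown.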

Other observations

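The genes *PS2*, *AMY1*, *APL3*, *PRR7* and *MT3*, named after their values were seen, passed no test in any comparison of ES leaves, and *PHO1;H1* passed it between *hda9* and WT only. *PS2*, a pyrophosphatase induced by phosphate starvation, had 34.2 and 102 FPKM in *pwr* ES leaves and 271 and 91.7 FPKM in *hda9* ES leaves, against 12.9 and 111 FPKM in WT ES leaves. It was listed at 0 in *hda9* YL and had 0.893 and 0.221 FPKM in WT YL. *PHO1;H1* had 55.7 and 31.9 FPKM in *pwr* ES leaves. The amylase gene *AMY1* had 14.5 and 63.3 FPKM in *pwr* and 78.3 and 213 FPKM in *hda9*, against 18.8 and 77.0 FPKM in WT ES leaves. *APL3*, a subunit of the enzyme that makes ADP-glucose for starch, had 30.9 and 59.1 FPKM in *pwr* and 27 and 25.9 FPKM in *hda9*, against 30.4 and 26.6 FPKM in WT. The clock gene *PRR7* had 47.1 and 35.5 FPKM in *pwr* and 26.2 and 51.4 FPKM in *hda9*, against 32.3 and 34.4 FPKM in WT. The metallothionein gene *MT3* was the strongest protein coding transcript of the set, with 10670 and 10087 FPKM in *pwr* and 20099 and 13833 FPKM in *hda9*, against 21114 and 17221 FPKM in WT ES leaves.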
